A study of Mus musculus with 15 samples.

Results

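The nuclear genes for the subunits of oxidative phosphorylation were examined in whole mouse hearts. They were chosen by symbol: every non-control probe whose gene name began with Nduf, Uqcr or Atp5 or with Cox4 to Cox8, and Sdha, Sdhb, Sdhc and Sdhd. This gave 83 genes on 117 probes, of 27845 gene names on 41174 probes. Complex I had 38 of these genes, complex II 4, complex III 7, complex IV 18 and complex V 16. Where a gene had several probes it was represented by the one with the highest mean heart signal. Testing required a heart signal well above background in 4 or more of 5 arrays in some group, which held for 81 of the 83 genes and 18676 gene names in all. Cox4i2 and Cox8c were the genes not tested. Some of the symbols name proteins that are not subunits: Ndufaf1 and Ndufa12l (now Ndufaf2) are assembly factors of complex I, Cox7a2l helps to join complexes into supercomplexes, Cox4nb (now Emc8) belongs to a membrane protein insertion complex, and Atp5s (now Dmac2l) is a factor linked to the ATP synthase. Ndufa4 was counted with complex I by its symbol, although its protein is now placed in complex IV.

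The hearts came from rosiglitazone-treated db/db mice, untreated db/db mice and db/+ mice, with 5 mice in each group. The db/db mice (C57BL/KLS-leprdb/leprdb) are homozygous for a loss-of-function allele of the leptin receptor, and become obese and diabetic, while the db/+ mice (C57BL/KLS-leprdb/lepr+) were heterozygous littermates that still carry 1 copy of that allele. Rosiglitazone, an agonist of the nuclear receptor PPARγ, was given in the chow at 5 mg/kg per day for 4 months. The db allele is carried in the germline and so in every tissue, and the age and sex of the mice were not given in the sources used here. Each array compared 1 heart RNA, labelled with Cy5, with the same commercial reference RNA, labelled with Cy3, so every value below is the log2 ratio of heart to reference at a gene's own probe.

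Oxidative phosphorylation is the route by which mitochondria turn the electrons of NADH and succinate into ATP. Complex I (NADH dehydrogenase) and complex II (succinate dehydrogenase) pass electrons to ubiquinone, complex III (cytochrome bc1) passes them to cytochrome c, complex IV (cytochrome c oxidase) passes them to oxygen, and complex V (ATP synthase) uses the resulting proton gradient to make ATP. The heart depends on this route for nearly all of its ATP and has muscle-type isoforms of several complex IV subunits beside the ubiquitous ones.

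The promoters of many of these genes carry sites for nuclear respiratory factors, and those below are examples from complexes I, II and IV. Among the genes shown, only Ndufa8 passed the adjusted threshold of 0.05 in the limma fit below. The sequences are the 250 bases before the transcription start from RefSeq (GRCm38.p6), with matches to the palindrome bound by NRF1 or to the ETS core CCGGAAG, the letters bound by GABP (also called NRF2), in capitals.
Ndufa8 (chr2:36049339-36049588, minus strand): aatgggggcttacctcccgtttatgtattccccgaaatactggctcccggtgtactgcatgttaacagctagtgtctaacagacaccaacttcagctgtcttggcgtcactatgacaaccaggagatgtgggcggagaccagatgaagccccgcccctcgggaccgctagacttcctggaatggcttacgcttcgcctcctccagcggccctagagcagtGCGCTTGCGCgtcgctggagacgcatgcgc
Sdha (chr13:74350241-74350490, minus strand): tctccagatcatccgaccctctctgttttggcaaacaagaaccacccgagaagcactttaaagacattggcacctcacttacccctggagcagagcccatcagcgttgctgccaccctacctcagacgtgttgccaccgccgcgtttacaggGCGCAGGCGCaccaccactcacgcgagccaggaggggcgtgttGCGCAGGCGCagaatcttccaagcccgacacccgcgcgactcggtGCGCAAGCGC
Cox6a1 (chr5:115348959-115349208, minus strand): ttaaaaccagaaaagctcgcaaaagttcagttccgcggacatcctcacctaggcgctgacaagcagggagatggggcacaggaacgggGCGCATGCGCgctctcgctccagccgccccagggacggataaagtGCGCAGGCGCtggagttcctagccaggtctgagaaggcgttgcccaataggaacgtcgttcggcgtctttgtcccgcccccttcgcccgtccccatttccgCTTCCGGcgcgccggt
Cox7a1 (chr7:30183921-30184170, plus strand): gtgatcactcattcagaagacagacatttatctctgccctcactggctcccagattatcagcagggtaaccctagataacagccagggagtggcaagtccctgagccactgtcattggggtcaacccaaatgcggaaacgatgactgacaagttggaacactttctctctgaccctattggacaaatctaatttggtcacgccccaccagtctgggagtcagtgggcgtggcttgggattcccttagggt
Cox8b (chr7:140900447-140900696, minus strand): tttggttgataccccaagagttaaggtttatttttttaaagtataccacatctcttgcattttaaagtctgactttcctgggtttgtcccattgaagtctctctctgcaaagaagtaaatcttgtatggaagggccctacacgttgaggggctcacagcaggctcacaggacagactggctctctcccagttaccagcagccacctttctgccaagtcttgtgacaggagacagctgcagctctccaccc
The Sdha window held 3 NRF1 matches, that of Cox6a1 held 2 and an ETS match, and that of Ndufa8 held 1 NRF1 match. The windows of the muscle isoforms Cox7a1 and Cox8b held neither motif, as was so for most windows of the members. The windows shown were picked and do not compare muscle with ubiquitous isoforms. Over both strands, the NRF1 palindrome, with any base at its middle free position, was in 14 of 73 windows of 68 matched members (19.2%) and in 3.74% of all 32851 windows. The ETS core was in 13 windows (17.8%, against 6.91% of all), and the letters AAGATGGC of YY1 were in 1.37% of the members' windows, against 1.56% of all. The letters TNAAGGTCA, bound by estrogen-related receptors, were in 2.74%, against 1.14% of all. These matches describe letters, and binding was not measured. No promoter of Cox6a2 is shown.

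Across the series, the fit of limma on all 27593 tested probes used 14 samples and 11 residual degrees of freedom. Treated replicates 3 and 4 were averaged into 1 sample, because they differed less than other pairs within a group. For each pair the median absolute deviation of the log2 heart signal difference was taken around its median and scaled as an SD. It was 0.142 for this pair, against 0.268 to 0.622 in the other 29 pairs. Cardiomyocyte markers were all above background (9 of 9). Their mean log2 ratio was 4.92 to 5.71 on treated db/db arrays, 3.82 to 5.96 on untreated db/db arrays and 3.09 to 6.39 on db/+ arrays. These ranges do not compare the groups, because outlier-marked spots were left out and the arrays average different genes. Tnni3 was missing on untreated replicates 1, 3 and 5 and db/+ replicates 2 and 4, and Myl2, Tnnt2 and Actc1 on db/+ replicate 2. The reference signal of Myh6 ranged over 10-fold between arrays and its heart signal over 1.77-fold, and Myl2, Mb and Tnnt2 likewise ranged more in the reference channel. All 7 listed white adipocyte markers averaged 0.95 to 1.15 on treated db/db, 0.89 to 1.67 on untreated db/db and 1.51 to 2.5 on db/+ arrays. Fabp4 was left out on db/+ replicate 4. Of these markers 5 were tested, with Cfd and Adipoq lower in both db/db groups and Lipe higher in untreated db/db hearts. Lep was not above background. The 4 B cell markers averaged -2.63 to -2.29, -2.86 to -2.39 and -1.95 to -1.5 in the same order of groups, and 3 of them were lower in both db/db groups. Of the 6 tested hepatocyte markers, Apoa2 and Ahsg were higher in untreated db/db hearts. Over all 8 listed hepatocyte markers the means were 1.09 to 3.13, 1.81 to 5.24 and 0.78 to 1.88 in that order of groups. The part of these other cells in the results below was not tested, and in whole-heart RNA fewer cells of a type and less RNA per cell cannot be told apart. The p-values rest on the spread of the ratios within a group, which holds array differences in both channels as well as differences between mice. Over the arrays, 42 of the 81 members spread more in the reference channel than in the heart channel.

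Nearly all of these genes gave more signal with heart RNA than with the reference RNA. In db/+ hearts the median log2 ratio of the 81 genes was 2.58, against 0.03 over all tested genes, and 77 of the 81 (95.1%) were above 0, against 51.0% of all tested genes. By complex the medians in treated db/db, untreated db/db and db/+ hearts were 2.6, 2.56 and 2.52 for complex I. They were 2.6, 2.52 and 2.35 for complex II and 2.79, 2.84 and 2.73 for complex III. They were 2.22, 2.29 and 2.26 for complex IV and 2.95, 2.84 and 2.83 for complex V. Complex IV had the widest range over its genes, with db/+ means between -1.27 for Cox7c, a small subunit of the oxidase, and 7.46 for Cox8b, a muscle isoform. All genes of complexes I, II, III and V were above 0 in db/+ hearts, and the 4 genes below 0 were Cox7c, Cox4nb, Cox6a1 and Cox8a, all of complex IV by symbol.

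**Figure D1:**
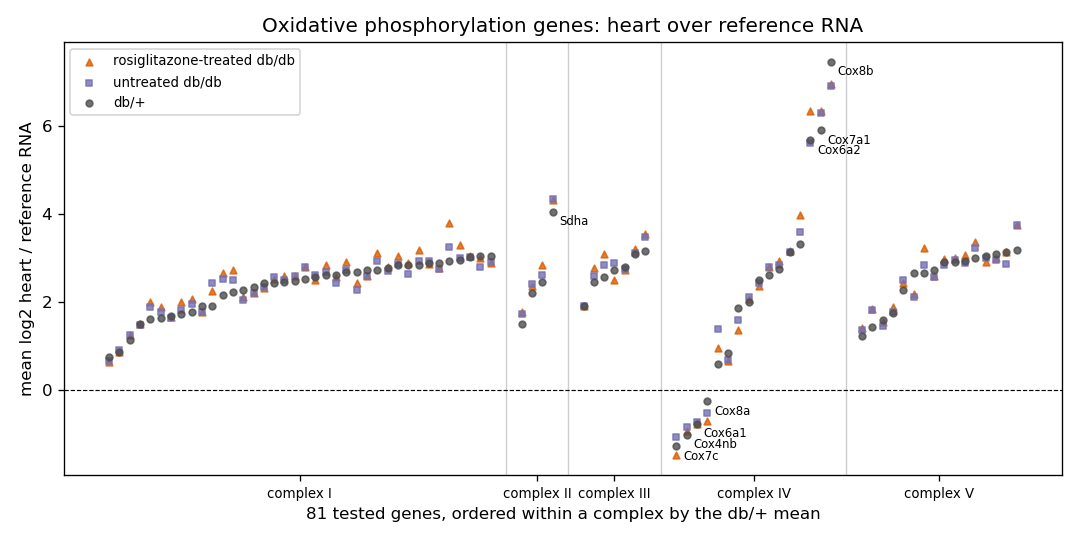
Mean log2 ratio of heart to reference RNA for the 81 tested genes (vertical axis), ordered within each complex by the db/+ mean, with triangles for treated db/db, squares for untreated db/db and circles for db/+ hearts. The 3 muscle isoforms of complex IV had the highest db/+ means, 5.68 to 7.46, and the 4 genes below 0 all lay in complex IV.

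The muscle-type isoforms of complex IV were far more enriched in heart over the reference RNA than their ubiquitous partners, each at its own probe, which does not order the isoforms by level. Cox6a2, the heart and skeletal muscle form of subunit 6a, averaged 6.35 ± 0.34 in treated db/db (SD, n = 4), 5.62 ± 1.08 in untreated db/db (n = 4) and 5.68 ± 2.02 in db/+ hearts (n = 4), and its ubiquitous partner Cox6a1 averaged -0.76 ± 0.15 (n = 4), -0.71 ± 0.16 (n = 5) and -0.75 ± 0.18 (n = 5). Cox7a1 averaged 6.34 ± 0.21 (n = 4), 6.30 ± 0.06 (n = 2) and 5.91 ± 1.52 (n = 4) in treated db/db, untreated db/db and db/+ hearts, and its partner Cox7a2 averaged 1.37 ± 0.21, 1.60 ± 0.13 and 1.87 ± 0.58. Cox8b averaged 6.96 ± 0.20 (n = 4), 6.92 ± 1.11 (n = 3) and 7.46 ± 0.82 (n = 4), and its partner Cox8a averaged -0.70 ± 0.07, -0.52 ± 0.21 and -0.25 ± 0.18. The lower n arises because spots that the scanner software marked as outliers were left out, on untreated replicates 1, 3 and 5 and db/+ replicates 2 and 4. Cox7a1 and Cox8b are also expressed by brown adipocytes, and of the other 4 brown adipocyte markers Ucp1 and Elovl3 were each well above background on 1 of the 15 arrays, and Cidea and Ppara on all 15, with log2 ratios of 4.69 to 7.04 for Cidea. Ppara is also known from cardiomyocytes. The part of such cells in these values was not tested.

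Shifts between the isoforms of a pair could hardly be tested with these numbers. The muscle isoform minus the ubiquitous one within an array was compared for 3 pairs, and Cox4i2 minus Cox4i1 as the fourth, in 3 comparisons each, by exact two-sided permutation tests over samples. The smallest p possible was 0.0286 or 0.0667 for the 3 muscle pairs, and over all 12 tests adjusted p ran between 0.80 and 0.971, which does not show that the pairs were stable. Cox8b minus Cox8a was 7.66 ± 0.22 in treated db/db hearts (n = 4) and 8.22 ± 0.49 in untreated db/db hearts (n = 2), with an exact p of 0.0667, the smallest these numbers allow, and an adjusted p of 0.80. All 4 treated samples lay below both untreated samples. Cox7a1 minus Cox7a2 was 4.97 ± 0.23 in treated db/db and 4.15 ± 1.08 in db/+ hearts (n = 4 each, exact permutation p = 0.143, adjusted p = 0.857). Cox6a2 minus Cox6a1 was 7.11 ± 0.19 in treated db/db hearts, 6.35 ± 1.18 in untreated db/db hearts and 6.49 ± 1.94 in db/+ hearts (n = 4 each). In db/+ replicate 2 it was 3.61, and without that array the db/+ mean was 7.46 ± 0.33 (n = 3), so that the treated minus db/+ difference was 0.61 with the array and -0.35 without it, and the untreated minus db/+ difference was -0.15 with it and -1.11 without it. For Cox7a1 minus Cox7a2 the treated minus db/+ difference was 0.82, and 0.31 without that array. The fourth pair is weak, since Cox4i2, the lung-type form of subunit 4, had a heart signal well above background on only 3 of 15 arrays and a reference signal on 0, so it has no usable ratio. Cox4i1, its ubiquitous partner, averaged 2.81 ± 0.15 in treated db/db (n = 4), 2.81 ± 0.26 in untreated db/db (n = 5) and 2.63 ± 0.51 in db/+ hearts (n = 5).

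The wide spread of the muscle isoforms lay in the reference channel. The reference RNA was the same on every array, yet the Cy3 signal of Cox6a2 ranged over 13.1-fold between arrays, from a log2 signal of 13.43 to 17.14, while its heart signal ranged over 1.73-fold. For Cox7a1 the reference signal ranged over 6.46-fold and the heart signal over 1.88-fold, and for Cox8b over 35-fold and 1.66-fold. In all 3 genes the highest reference signals were on db/+ replicates 2 and 4 and untreated replicates 1, 3 and 5, and the treated db/db arrays lay together, at 13.61 to 14.17 for Cox6a2. These ranges include the outlier-marked spots. The SD over the arrays was 0.27 in the heart channel and 0.99 in the reference channel as the median of these 3 genes, against 0.23 and 0.23 in the other 78 members. What raised the reference signal on those arrays was not tested.

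**Figure D2:**
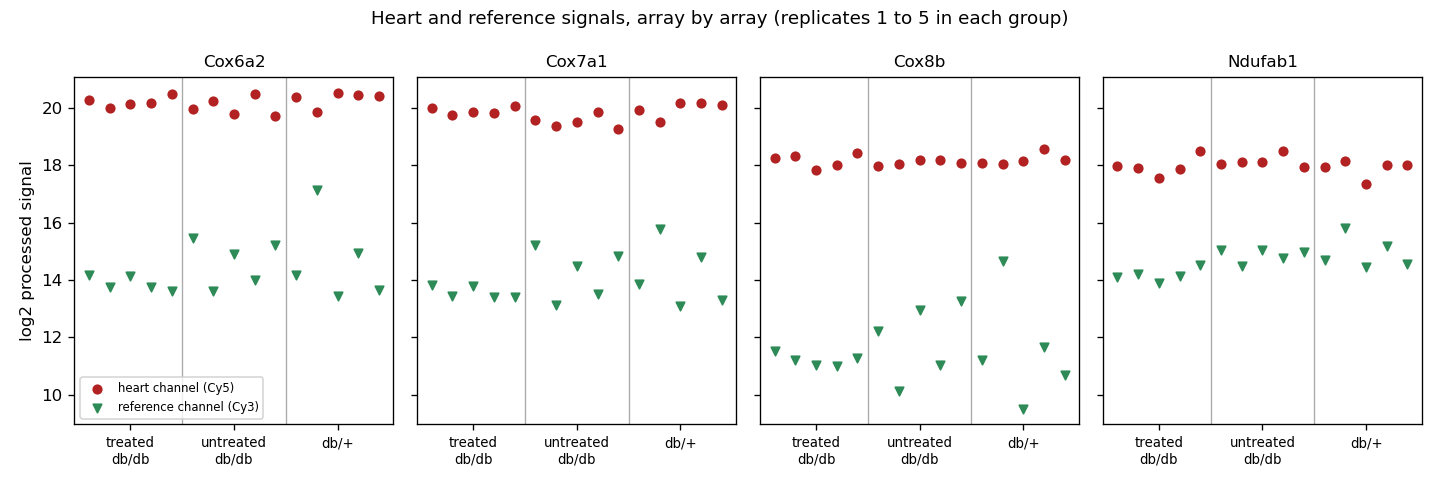
Log2 processed signal of the heart channel (circles, Cy5) and the reference channel (triangles, Cy3) on each array for Cox6a2, Cox7a1, Cox8b and the brightest Ndufab1 probe, with replicates 1 to 5 in order within treated db/db, untreated db/db and db/+ hearts and outlier-marked spots included. Over the arrays the heart signal of each of the 3 muscle isoforms lies within a 1.88-fold range while their reference signals range over 6.46-fold to 35-fold, with the highest on db/+ replicate 2.

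In the deposited ratios a db/+ array stood apart for the whole set. The median log2 ratio of the 81 genes was 2.6 to 2.72 on the 5 treated db/db arrays, 2.44 to 2.80 on the untreated db/db arrays and 2.50 to 2.77 on 4 db/+ arrays, but 1.79 on db/+ replicate 2. That array was the lowest of the 5 db/+ arrays for 66 of the 81 genes (81.5%), against 20.1% of all tested genes. It was also low for 287 other genes of a like heart signal, whose median was 0.66 there and 1.39 to 1.53 on the other db/+ arrays. The members' median heart signal on it was 17.62, against 17.67 to 18.19 on the other db/+ arrays, and their median reference signal was 15.80, against 14.93 to 15.51. The gap was smaller with normexp background correction and loess. The members' median ratio was then 2.06 on replicate 2, against 2.14 to 2.79 on the other db/+ arrays. On that array the software marked the brightest probes of 10 of the 81 genes (12.3%) as outliers, against 2.84% of all tested probes. The members' medians and calls against db/+ hearts, and the isoform differences above, are therefore also given without it.

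**Figure D3:**
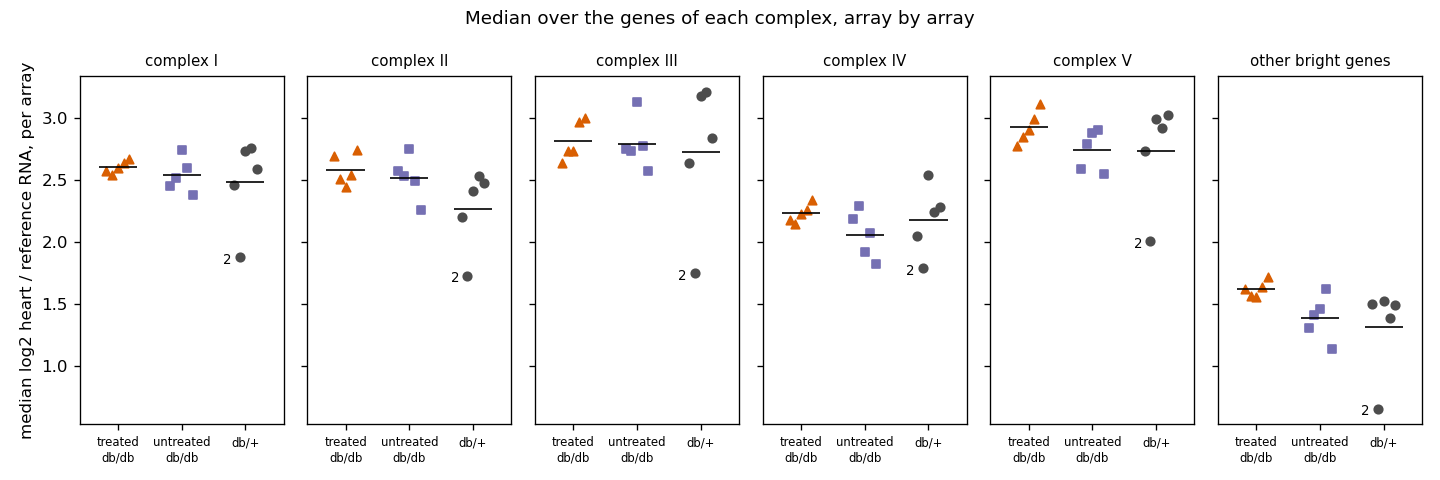
Median log2 ratio of heart to reference RNA over the genes of each complex, 1 point per array (triangles treated db/db, squares untreated db/db, circles db/+) with lines at the means of the arrays, and in the last panel over 287 other genes of like heart signal. The point labelled 2 is db/+ replicate 2, the lowest array in every panel.

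The comparison of untreated db/db with db/+ hearts addresses how these genes stand in the diabetic heart. Of 81 genes, 2 passed the adjusted threshold of 0.05, 1 in each direction, which is 2.47% of them, while 8.14% of all tested genes passed (4.33% higher and 3.81% lower). Cox6b2, the testis-type isoform of oxidase subunit 6b, was higher and Atp5j2, subunit f of the ATP synthase, was lower. At an unadjusted limma p under 0.05 there were 13 members (16%, against 26% of all tested genes). The differences ran from -0.54 for Cox8b to 0.78 for Cox6b2, with a median of 0.05 beside 0.00 over all tested genes, and 50 of the 81 were positive. Their median standard error was 0.18, against 0.15 over all tested genes. The 2 groups did not overlap for 2 members (2.47%, against 8.20% of all).

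Cox6b2 read 1.86, 1.47, 1.69, 0.73 and 1.18 in untreated db/db replicates 1 to 5, against 0.46, 0.73, 0.37, 0.69 and 0.79 in db/+ replicates 1 to 5. Untreated replicate 4 lay within the db/+ range and the other 4 lay above it. The difference was 0.78 ± 0.19 (SE; 1.72-fold) with an adjusted p of 0.029 in the limma fit. In the heart channel alone the difference was 0.71 and in the reference channel -0.07. Within the slide that held both groups it was 0.88. That slide held only replicate 5 of the db/+ group, and untreated replicates 1 to 3, whose values were the highest of their group. The call held in 20 of 28 other settings. Among these were the authors' value table, which holds the same ratios, and every fit that left out a treated array, which is in neither group. The call was lost without untreated replicate 1, 2 or 3 or db/+ replicate 3 or 4, with the slide as a fixed block, with the replicate block and with only the compared groups in the fit. Its ubiquitous partner Cox6b1 differed by 0.11 ± 0.08 (adjusted p = 0.40). The Cox6b2 probe was dim, with a log2 heart signal of 8.94 to 10.63, but well above background on all 15 arrays.

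Atp5j2 read 1.92, 2.24, 2.28, 2.11 and 2.10 in untreated db/db replicates 1 to 5, against 2.51, 3.01, 2.70 and 2.40 in db/+ replicates 1, 3, 4 and 5, the spot of replicate 2 being left out as an outlier. Every untreated value lay below every db/+ value. The difference was -0.53 ± 0.14 (SE), or 1.44-fold lower, with an adjusted p of 0.045 in limma. Its heart channel differed by -0.28 and its reference channel by 0.24, and within the shared slide the difference was -0.25. A second, dimmer Atp5j2 probe differed by 0.09 ± 0.13 (adjusted p = 0.69), so the probes did not give the same direction. The call was lost in 17 of 28 other settings, among them the heart channel alone (-0.17), the outlier-marked spots kept, and the fits without db/+ replicate 3 or 4 or without any 1 untreated replicate. It was also lost without treated replicate 2, 3 or 5, which enter through the shared spread.

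No gene of complexes I, II and III passed in this comparison. All 4 genes of complex II, which is also an enzyme of the citric acid cycle, had positive differences. Sdha, the flavoprotein subunit, averaged 4.36 ± 0.12 in untreated db/db and 4.06 ± 0.32 in db/+ hearts (n = 5 each), a difference of 0.30 ± 0.13 (adjusted p = 0.17), and its dimmer probe differed by 0.43 ± 0.13 (adjusted p = 0.053). Sdhc, a membrane anchor, differed by 0.23 ± 0.10 (adjusted p = 0.18), the other anchor Sdhd by 0.19 ± 0.15 (adjusted p = 0.43), and the iron-sulfur subunit Sdhb by 0.16 ± 0.14 with db/+ replicate 2 left out (adjusted p = 0.51). In complex I the genes with the smallest p were the accessory subunits Ndufa11, at 0.54 ± 0.18 (adjusted p = 0.076), and Ndufa10, at 0.38 ± 0.14 (adjusted p = 0.11). The untreated and db/+ groups did not overlap for Ndufa11, and its other probe gave 0.54 ± 0.18 as well. In complex III, Uqcrfs1, the Rieske iron-sulfur protein, differed by 0.32 ± 0.14 (adjusted p = 0.16) and the core protein Uqcrc1 by 0.25 ± 0.22 (adjusted p = 0.50). In complex V, Atp5d, the delta subunit of the F1 head, differed by 0.39 ± 0.11 (adjusted p = 0.055). Cox4nb, grouped with complex IV by its symbol, differed by 0.17 ± 0.07 (adjusted p = 0.17).

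By complex the median differences between untreated db/db and db/+ hearts were 0.04 in I, 0.21 in II, 0.14 in III, 0.07 in IV and -0.02 in V. Without db/+ replicate 2 they were -0.09, 0.17, 0.00, -0.14 and -0.16 in that order, and the median of all 81 turned to -0.10. The same 2 genes passed in that fit, beside 6.73% of all tested probes. Within the slide that held db/+ replicate 5 and untreated replicates 1 to 3, the median of all 81 was -0.05 and that of complex II was 0. The positive median therefore depended on 1 array, and slide and group were largely shared, since db/+ replicates 1 to 4 lay on a slide of their own.

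**Figure D4:**
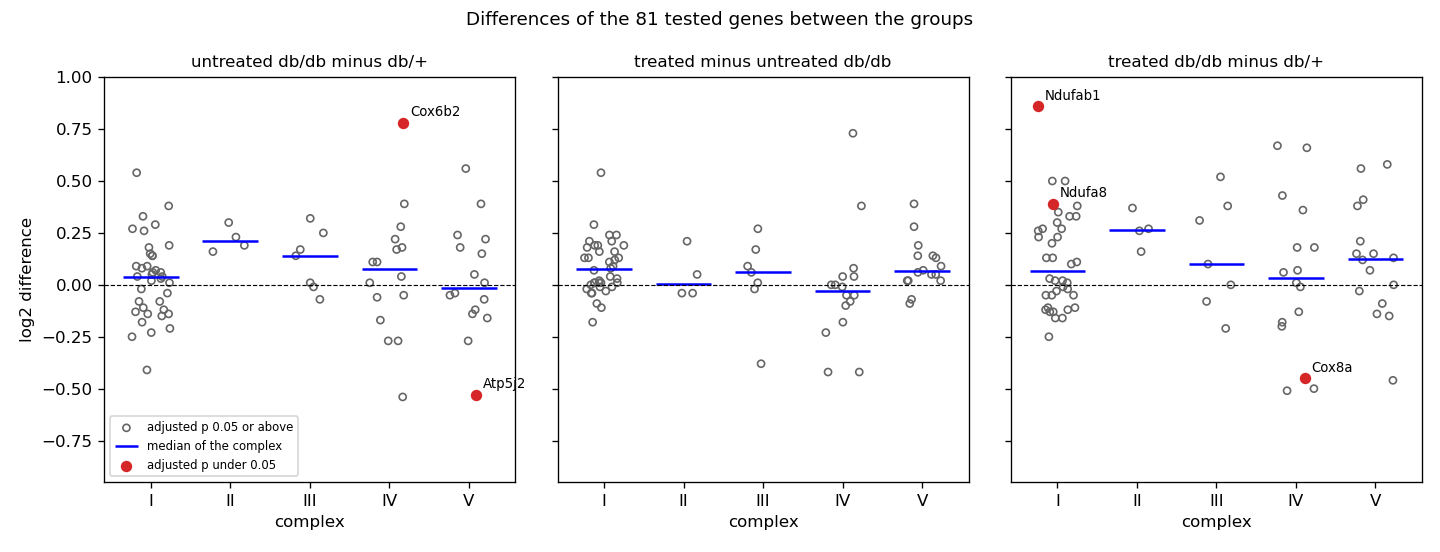
Log2 differences of the 81 tested genes by complex in the 3 comparisons, with filled points for genes at an adjusted p under 0.05, open points for the others and a bar at the median of each complex. Of the members 2 passed in untreated db/db against db/+, 0 in treated against untreated db/db and 3 in treated db/db against db/+, and the complex medians lay between -0.03 and 0.27.

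Treatment was examined by setting treated db/db against untreated db/db hearts. No member passed, and no gene on the array did (0% of all tested genes). At an unadjusted limma p under 0.05 there were 2 members (2.47%), against 9.31% of all tested genes, and the smallest adjusted p of a member was 0.517. The differences ran from -0.42 for Cox7c to 0.73 for Cox6a2, with a median of 0.04 beside -0.01 over all tested genes and a median standard error of 0.19. In 55 of the 81 genes the difference was positive, and in 0 did the groups fail to overlap, against 5.06% of all.

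Ndufab1, the mitochondrial acyl carrier protein, which is a subunit of complex I and also serves fatty acid and lipoate synthesis, had a difference of 0.54 ± 0.22 between treated and untreated db/db hearts (adjusted p = 0.52), with -0.11 in its heart channel and -0.65 in its reference channel. In this comparison the channels of all tested genes differed by 0.22 and 0.23 in the median. Cox7c read -1.45, -1.46, -1.74, -1.70 and -1.26 in treated db/db replicates 1 to 5, against -1.11, -1.08, -0.88, -1.26 and -0.94 in untreated db/db replicates 1 to 5, a difference of -0.42 ± 0.17 (adjusted p = 0.52). Among the other members with the smallest p, Ndufb7 of complex I differed by 0.24 ± 0.15 (adjusted p = 0.70) and Sdhb by 0.21 ± 0.14 (adjusted p = 0.73). In complex III, Uqcrb differed by -0.38 ± 0.22 (adjusted p = 0.67) and Uqcrc1 by 0.27 ± 0.23 (adjusted p = 0.81). Cox6b2, which passed above, read 0.75, 0.73, 1.06, 1.07 and 1.33 in treated db/db hearts, and differed from untreated db/db by -0.42 ± 0.21 (adjusted p = 0.60). Its heart channel differed by 0.19 and its reference channel by 0.60, and the heart channel alone, quantile normalized, gave -0.02. In complex V, Atp5g1, a gene for the membrane ring subunit c, differed by 0.28 ± 0.18 (adjusted p = 0.72) and Atp5a1, the alpha subunit, by 0.39 ± 0.30 (adjusted p = 0.78). Sdhc differed by 0.05 ± 0.11.

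The intervals of 4 genes show how closely this comparison was measured. For Sdha the 95% interval of the difference was -0.33 to 0.26, for Atp5d -0.24 to 0.28, for Cox4i1 -0.48 to 0.47 and for Cox6a2 -1.10 to 2.56. The interval was the widest for Cox6a2 among these 4 genes, with 4 samples in each group after the marked spots were left out. By complex the medians were 0.08 in I, 0.01 in II, 0.06 in III, -0.03 in IV and 0.06 in V. Within the slide that held untreated replicates 4 and 5 and treated replicates 1 and 2, the median of all 81 was 0.03.

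Treated db/db hearts against db/+ hearts share both groups with the comparisons above and are not independent of them. Of 81 genes 3 passed (3.70%), while 9.37% of all tested genes did (4.65% higher and 4.72% lower). Ndufab1 and Ndufa8, both of complex I, were higher and Cox8a was lower. At an unadjusted limma p under 0.05 there were 15 members (18.5%), against 27.6% of all. The differences ran from -0.51 for Cox8b to 0.86 for Ndufab1, the median was 0.10 beside -0.01 over all tested genes, and 51 of the 81 were positive. The groups did not overlap for 6 members (7.41%), against 15.7% of all tested genes.

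The brightest Ndufab1 probe read 3.86, 3.70, 3.64, 3.74 and 3.96 in treated db/db replicates 1 to 5, against 2.96, 3.62, 3.07, 3.70 and 2.99 in untreated db/db replicates and 3.23, 2.34, 2.89, 2.81 and 3.44 in db/+ replicates. Every treated value lay above every db/+ value. The treated minus db/+ difference was 0.86 ± 0.22 (SE; 1.82-fold), with an adjusted p of 0.028 in limma. This difference lay in the reference channel of the probe: the heart channel differed by 0.14 and the reference channel by -0.72, where both channels of all tested genes differed by 0.28 in the median, and the heart channel alone, quantile normalized, gave 0.01. The call was also lost with the slide as a fixed block and without db/+ replicate 3 or 4 or treated replicate 1, 2 or 5. The log2 reference signal was 13.90 to 14.53 on treated db/db arrays, 14.47 to 15.06 on untreated db/db arrays and 14.45 to 15.80 on db/+ arrays, and its heart signal was 17.54 to 18.49, 17.94 to 18.48 and 17.34 to 18.13 in the same order.

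Both dimmer Ndufab1 probes gave another picture, higher in both db/db groups and alike between them. The second probe read 3.08, 3.04, 3.06, 2.97 and 2.89 in treated db/db hearts, 2.75, 2.84, 3.27, 2.91 and 2.98 in untreated db/db hearts and 2.34, 2.45, 2.65, 2.55 and 2.64 in db/+ hearts. The third read 0.74, 0.65, 0.69, 0.65 and 0.60 in treated db/db hearts, 0.64, 0.69, 1.05, 0.53 and 0.63 in untreated db/db hearts and 0.26, 0.18, -0.01, 0.28 and 0.20 in db/+ hearts. Neither db/db group overlapped with db/+ on either probe. Untreated db/db was higher than db/+ by 0.42 ± 0.10 (adjusted p = 0.026) on the second and 0.53 ± 0.10 (adjusted p = 0.0073) on the third probe, and treated db/db by 0.48 ± 0.11 on both (adjusted p = 0.018 and 0.015). Between treated and untreated db/db hearts they differed by 0.06 ± 0.11 and -0.04 ± 0.11. On these probes the treated minus db/+ difference was 0.92 and 0.94 in the heart channel and 0.43 and 0.46 in the reference channel, and the heart channel alone, quantile normalized, gave 0.64 and 0.66.

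Ndufa8, an accessory subunit of complex I, read 1.95, 1.85, 2, 2.11 and 2.24 in treated db/db hearts, against 1.68, 1.40, 1.49, 1.66 and 1.94 in db/+ hearts. Only db/+ replicate 5 lay within the treated range. The difference was 0.39 ± 0.11 (1.31-fold, adjusted p = 0.048 in limma). The heart channel of Ndufa8 differed by 0.40 and its reference channel by 0.01, where both channels of all tested genes differed by 0.28 in the median. Its dimmer probe gave 0.31 ± 0.11 (adjusted p = 0.085) with untreated replicate 5 and db/+ replicate 2 left out. The heart channel alone, quantile normalized, gave 0.20 and did not pass. Untreated db/db hearts differed from db/+ by 0.26 ± 0.11 (adjusted p = 0.15). With the slide as a fixed block the Ndufa8 difference was -0.03, and the call was kept in 9 of 28 other settings. Of the fits that left out 1 array it held only without db/+ replicate 5 or treated replicate 3.

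Cox8a, the ubiquitous isoform of oxidase subunit 8, read -0.65, -0.74, -0.79, -0.76 and -0.64 in treated db/db hearts, against -0.39, -0.23, 0.01, -0.19 and -0.43 in db/+ hearts. All treated values lay below all db/+ values. The difference was -0.45 ± 0.12 (1.37-fold lower, adjusted p = 0.034 in limma). As processed, the heart channel differed by -0.27 and the reference channel by 0.19, where both channels of all tested genes differed by 0.28 in the median. After quantile normalization the heart channel alone gave -0.47. In untreated db/db hearts it read -0.67, -0.38, -0.73 and -0.30 in replicates 2 to 5, with replicate 1 left out, and differed from db/+ by -0.27 ± 0.12 (adjusted p = 0.17). The treated db/db call held in 18 of 28 other settings. Among these were the authors' value table, which holds the same ratios, and every fit that left out an untreated array, which is in neither group. The call was lost without db/+ replicate 2, 3 or 4 or treated replicate 1, 2 or 5. It was also lost with the slide as a fixed block (-0.27), with the replicate block, with normexp and loess, and with the heart channel alone.

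**Figure D5:**
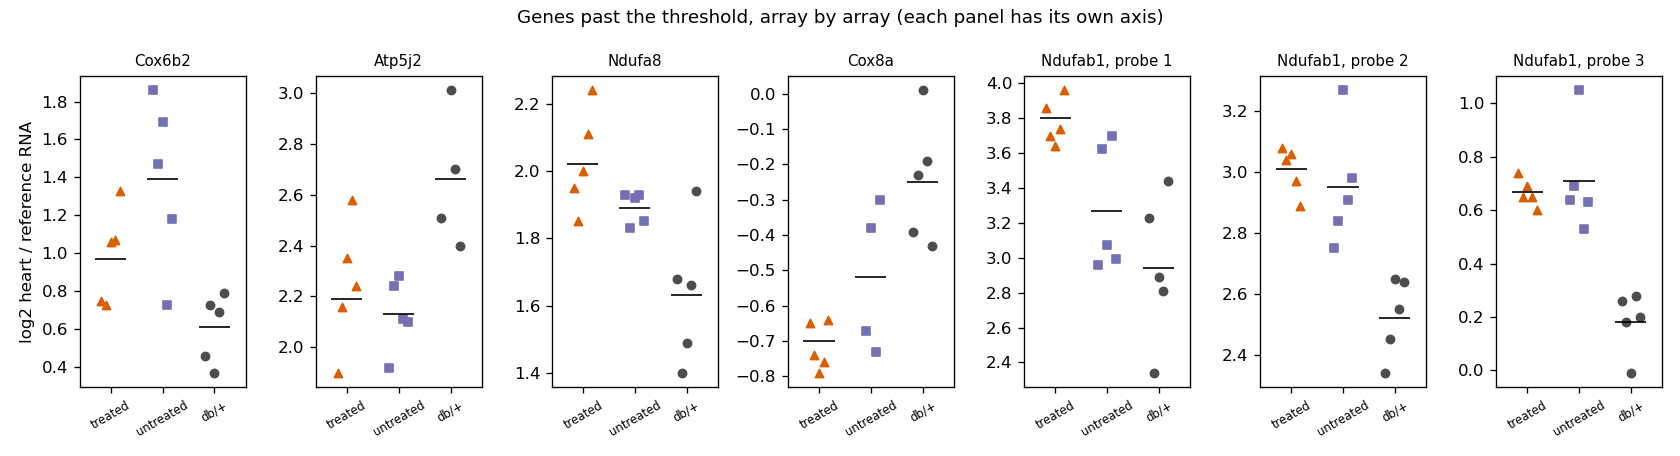
Log2 ratio of heart to reference RNA on each array for the genes past the threshold, with the 3 tested Ndufab1 probes in order of brightness, triangles for treated db/db, squares for untreated db/db, circles for db/+ hearts and lines at the group means. The brightest Ndufab1 probe separated treated db/db from db/+ hearts only, and the other 2 separated both db/db groups from db/+ hearts.

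The other members named in treated db/db hearts did not pass. Ndufa10 was 2.66 ± 0.03 in treated db/db (n = 4) and 2.16 ± 0.31 in db/+ hearts (n = 5), a difference of 0.50 ± 0.15 (adjusted p = 0.051) with no overlap. Atp5d was 1.85 ± 0.03 and 1.44 ± 0.25, a difference of 0.41 ± 0.12 (adjusted p = 0.052), also with no overlap. Atp5j2 differed by -0.46 ± 0.15 (adjusted p = 0.075). In complex II, Sdhb differed by 0.37 ± 0.15 (adjusted p = 0.13), Sdhc by 0.27 ± 0.11 (adjusted p = 0.12), Sdha by 0.26 ± 0.14 (adjusted p = 0.25) and Sdhd by 0.16 ± 0.15 (adjusted p = 0.55). In complex III, Uqcrfs1 differed by 0.38 ± 0.15 (adjusted p = 0.11) and Uqcrc1 by 0.52 ± 0.23 (adjusted p = 0.17). Cox5a, a matrix-side subunit of the oxidase, differed by 0.66 ± 0.29 (adjusted p = 0.17), and Cox7a2 by -0.50 ± 0.24 (adjusted p = 0.19).

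The median differences between treated db/db and db/+ hearts were 0.07 in complex I, 0.27 in II, 0.10 in III, 0.04 in IV and 0.13 in V. Without db/+ replicate 2 they were -0.01, 0.19, 0.10, -0.18 and -0.04, and the median of all 81 was -0.03. In that fit 2 genes passed, Ndufab1 higher and Cox7a2 lower, beside 7.66% of all tested probes. No slide held both groups. The within-slide difference of untreated db/db from db/+ plus that of treated from untreated db/db had a median of 0.04 over all 81, 0.18 in complex II and -0.21 in complex IV. Summed in this way Ndufab1 was 0.21, Ndufa8 -0.03 and Cox8a -0.27.

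Probes of a gene did not always give the same result. Of 24 genes with several tested probes, the signs differed in 6 for untreated db/db against db/+, in 10 for treated against untreated db/db and in 6 for treated db/db against db/+. Over all 111 tested probes 6, 0 and 5 passed in these comparisons, while 7.76%, 0% and 8.70% of all tested probes did. Beyond those given above, a dim probe of Atp5f1 (now Atp5pb), subunit b of the ATP synthase, was higher in the untreated db/db group by 0.72 ± 0.16 (adjusted p = 0.017), and the other 2 probes of the gene gave -0.04 ± 0.22 and -0.01 ± 0.11. A dim probe of Ndufb2 was lower by 0.50 ± 0.14 (adjusted p = 0.044), and the brightest one differed by -0.08 ± 0.16. Which transcripts each probe reads was not tested.

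The 6 lists of genes that work beside the complexes held 199 tested genes. For untreated db/db against db/+, 10 of them passed as higher (5.03%, against 4.33% of all tested genes) and 1 as lower (0.503%, against 3.81%). For treated db/db against db/+, 17 passed as higher (8.54%, against 4.65%) and 0 as lower (0%, against 4.72%). Whether the lists differ from other genes was not tested. Of 18 tested genes of the citric acid cycle and pyruvate dehydrogenase, 2 were higher in untreated db/db hearts (against db/+), Dlat, the acetyl transferase of pyruvate dehydrogenase, by 0.46 ± 0.12 (adjusted p = 0.034) and Idh3a, of NAD-dependent isocitrate dehydrogenase, by 0.51 ± 0.14 (adjusted p = 0.041). The same 2 were higher in the treated db/db group, Idh3a by 0.67 ± 0.15 and Dlat by 0.53 ± 0.13. The list's median difference was 0.24 and 0.27 in these comparisons, against 0.05 and 0.10 for the 81 members. Suclg1 differed by 0.45 ± 0.15 in untreated db/db (adjusted p = 0.081).

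Of 43 tested assembly and translation factors, 2 passed as higher in the untreated db/db group (4.65%, near the 4.33% of all tested genes) and 0 as lower. Cox10, which takes part in the synthesis of heme a for complex IV, was higher by 0.54 ± 0.12 (adjusted p = 0.017). Lrpprc, which stabilises mitochondrial mRNAs, was higher by 0.36 ± 0.10 (adjusted p = 0.037), while Oxa1l differed by 0.38 ± 0.12 (adjusted p = 0.072). In treated db/db hearts 4 were higher than in db/+ (9.3%) and 0 lower, among them Cox10 by 0.54 ± 0.13, the copper chaperone Sco1 by 0.33 ± 0.08 and the ATP synthase factor Atpaf1 by 0.34 ± 0.09. Of 75 mitochondrial ribosomal protein genes, 2 (2.67%) were higher in untreated db/db hearts (Mrps11 by 0.36 ± 0.09 and Mrpl28 by 0.38 ± 0.10) and 6 (8%) in treated db/db hearts, led by Mrpl28 (0.47 ± 0.10), Mrps18a (0.46 ± 0.10) and Mrps34 (0.59 ± 0.13), with 0 lower in either.

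Among 21 genes of ubiquinone, cytochrome c and electron entry, Coq6 of ubiquinone synthesis was higher in untreated db/db hearts by 0.48 ± 0.11 (adjusted p = 0.022) and Etfdh, which feeds electrons of fatty acid oxidation to ubiquinone, by 0.47 ± 0.12 (adjusted p = 0.033). Etfdh was also higher in the treated group, by 0.51 ± 0.12 (adjusted p = 0.027). Of 17 carriers and uncoupling proteins, the carnitine carrier Slc25a20 was higher in untreated db/db hearts by 0.63 ± 0.15 (adjusted p = 0.026). In treated db/db hearts Slc25a12, an aspartate and glutamate carrier, was higher than in db/+ by 0.66 ± 0.14 (adjusted p = 0.015) and the oxoglutarate carrier Slc25a11 by 0.47 ± 0.14 (adjusted p = 0.047).

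Of 25 regulators of mitochondrial biogenesis, Pparg, the receptor of rosiglitazone, was higher in untreated db/db hearts by 0.55 ± 0.10 (adjusted p = 0.0064) and in treated db/db hearts by 0.52 ± 0.11 (adjusted p = 0.012), each against db/+ hearts. Prkaa1, a catalytic subunit of AMP-activated kinase, was lower in untreated db/db hearts by 0.34 ± 0.09 (adjusted p = 0.039). Polrmt, the mitochondrial RNA polymerase, was higher in the treated group by 0.63 ± 0.15 (adjusted p = 0.025), and Esrra differed by 0.30 ± 0.09 (adjusted p = 0.053). None of these lists had a gene past the threshold between treated and untreated db/db hearts. The smallest unadjusted p there was for Nrf1, which differed by -0.35 ± 0.10 (adjusted p = 0.43).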

How the data were processed

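Whole-heart RNA of 15 mice was hybridised on 2-colour Agilent mouse arrays, heart in Cy5 and Universal Mouse Reference in Cy3, with no dye swap. Per the file headers, the authors' Agilent Feature Extraction software (9.5.1) gave processed intensities after background subtraction and LOWESS dye normalization. The deposited log10 ratio of Cy5 to Cy3 was multiplied by log2(10), and the authors' deposited value table held the same ratios (largest difference 0). Flags (deposited, other) removed outlier spots, not saturated ones. Spots of a probe were averaged, and limma 3.58.1 in R 4.3.3 (lmFit, eBayes) was fitted to 3 groups, with Benjamini-Hochberg adjustment over all tested probes. Isoform differences used exact permutation tests. The scripts were tested on simulated data. Alternatives covered normalization, filters, probe choice, slide and replicate blocks, SAM, left-out arrays and, chosen after seeing the data, outlier-flagged spots kept and isoform differences without db/+ replicate 2. Named are members past the threshold, the 2 with the smallest p per complex and comparison, the isoform pairs, complex II and up to 3 genes per other list. The dim probes of Ndufab1, Atp5f1, Ndufb2, Atp5j2 and others were named after their values were seen. Members, lists and the averaging of treated replicates 3 and 4 were chosen with earlier results of these data known, and the 3 comparisons share groups. Sequences came from RefSeq. One gene that this rule names is not reported here.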

Additional observations from a re-analysis of the deposited data

Results flagged for a closer look

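In groups of 4 or 5 samples, 1 value was looked for that lay far from the rest of its group relative to the group's range. Of 100 groups of values 10 held one, and chance gives about 1 in 20. Of these, 3 were on db/+ replicate 2. There the median of all members was 1.79, against 2.50 to 2.77 on the other db/+ arrays, the median of complex V was 2.01, against 2.73 to 3.02, and Uqcrfs1 was 2.58, against 3.17 to 3.39. In db/+ hearts Cox7c was also low on replicate 1, at -1.93 against -1.21 to -1.03, and Sdhc was high on replicate 5, at 1.77 against 1.39 to 1.5. In untreated db/db hearts Ndufa10 was low on replicate 5, at 2.19 against 2.56 to 2.71. In treated db/db hearts Atp5a1 was low on replicate 1, at 3.09 against 3.26 to 3.28, and Cox4nb was low on the same array, at -1.02 against -0.92 to -0.90. Ndufb7 was high on treated replicate 5, at 3.09 against 2.81 to 2.85, and Uqcrc1 was low in the mean of treated replicates 3 and 4, at 2.85 against 3.16 to 3.22. The cause was not tested.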

How the results depend on the processing

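The members' calls rested on few genes and changed with the processing. The counts past the threshold were 2 in untreated db/db against db/+, 0 in treated against untreated db/db and 3 in treated db/db against db/+. The middle count was 0 in every alternative. Of all tested probes 7.76%, 0% and 8.70% passed, and brackets below give this share in each alternative. It moved with the setting too, so the counts alone do not describe these genes. In the order untreated and then treated db/db, each against db/+, the counts were 9 and 4 with normexp and loess (11.1% and 5.35%). They were 1 and 1 with the Cy5 channel alone (6.87% and 10.8%) and 1 and 2 with no filter on dim probes (4.25% and 4.93%). They were 3 and 5 when all 15 arrays had to be well above background (10.1% and 11.3%). With the mean of a gene's probes they were 2 and 5 (8.29% and 9.43% of genes). With treated replicates 3 and 4 separate they were 3 and 6 (9.37% and 13.6%). They were 0 and 2 with only the compared groups in the fit (3.35% and 6.77%) and 0 and 0 with the slide as a fixed block (0.123% and 0.0145%). With the slide as a random block (consensus correlation -0.114) they were 8 and 10 (18.2% and 18.6%). By SAM they were 1 and 3 (8.16% and 12.1%). With the outlier-marked spots kept, an alternative chosen after seeing the data, they were 1 and 3 (7.45% and 8.34%). Leaving out 1 array gave 0 to 4 (4.29% to 9.94%) and 0 to 6 (3.96% to 10.5%). With the replicate block, in a fit that also kept treated replicates 3 and 4 separate, the counts were 1 and 3 (6% and 9.14%). Without the block and with those replicates separate they were 3 and 6. Same-numbered samples correlated at -0.19 to 0.05, with 0 of 5 pairs over 0.1 in each comparison, so the numbers were not taken to pair the mice. Ndufa8 in treated db/db against db/+ turned to -0.03 with the slide as a fixed block. The medians over the members, 0.05, 0.04 and 0.10, moved by less than the pooled SD of the array medians, 0.26. That SD exceeds the medians themselves, so a change of sign also falls within it. Over the left-out arrays they ran from -0.10 to 0.12, 0.02 to 0.10 and -0.03 to 0.17, and 2 of the 3 turned in sign. Of the isoform differences, none past the threshold, many moved. Cox6a2 minus Cox6a1 was -0.15 in untreated db/db against db/+ and -1.11 within the slide, and 0.61 in treated db/db against db/+ and -0.36 within slides. Without db/+ replicate 2, also chosen after seeing the data, it was -1.11 and -0.35. Cox8b minus Cox8a in treated db/db against db/+ was 0.57 with normexp, 0.77 with marked spots kept and -0.64 within slides. In treated against untreated db/db it was -0.03 with Cy5 alone, 1.04 with marked spots kept and -0.05 within the slide. In untreated db/db against db/+ it was -0.27 with marked spots kept and -0.59 within the slide. These within-slide values subtract each gene's own slide difference, so with marked spots left out the 2 genes can rest on different arrays. On the slide shared by untreated db/db and db/+, arrays with both genes read 8.57 (untreated replicate 2) and 7.92 (db/+ replicate 5). That is the opposite direction to -0.59. On the slide of treated and untreated db/db they read 7.36 and 7.85 (treated replicates 1 and 2) and 7.87 (untreated replicate 4). Cox7a1 minus Cox7a2 was -0.26 in untreated db/db against db/+ with marked spots kept and -0.59 within the slide, 0.55 with Cy5 alone and 1.3 with marked spots kept in treated against untreated db/db, and -0.43 within slides in treated db/db against db/+. Cox4i2 minus Cox4i1 in treated against untreated db/db was 0.24 with normexp and 0.23 with Cy5 alone. The cause was not tested. Array number and, for Cox4i2, signal near background limit what could be detected.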
